A study of Mus musculus with 10 samples.

Results

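Blood neutrophils of mice carrying the kidney tumour line OS5K_2 were compared with those of mice carrying the line OSPa, across every gene with at least 1 RPKM in at least 2 of the 10 libraries of the study. The comparison used 4 of the 10 libraries, 2 from each group, and 8039 of the 54146 genes in the deposited table passed the filter. RPKM counts reads per kilobase of transcript after scaling for the size of the library, so it is a level per length. A further 3 groups of 2 libraries, from mice given vehicle (sham) and from mice carrying the lines OS5K_1 and OS5K_3, shared the estimate of spread and served as points of reference.

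All mice were BALB/c nu/nu, a strain without a thymus and so with few T cells of its own, which lets human tumour cells grow. In the tumour groups, human clear cell renal carcinoma cells were placed in the kidney: OSPa, OS5K_1, OS5K_2 or OS5K_3, named in the labels as OS-RC-2 or lines derived from it. The label OSPa was read as the parental line, which the labels do not spell out. Sham mice received vehicle in the kidney. Day 14 was the day of collection, when CD11b+ Ly-6G+ cells were sorted from peripheral blood. The sources used here state neither the ages of the mice, nor how many mice stand behind a library, nor how the derived lines were made. The labels do not say that the 2 libraries of a group came from separate mice, so the p-values measure the spread between these libraries, which may be technical.

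Neutrophils are short-lived white cells that leave the bone marrow with most of their proteins already stored in granules. They follow chemokines such as the ligands of Cxcr2 into tissue, engulf microbes and release proteases and oxidants. In mice with tumours, circulating neutrophils are known to include younger cells and cells that restrain or help other immune cells, and they travel through blood that also carries red cells, reticulocytes, platelets and monocytes.

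The sorted cells carried the RNA of neutrophils. S100a8 and S100a9, the subunits of the calcium-binding protein calprotectin, were at 28576 and 24146 RPKM and at 41582 and 41408 RPKM in the OSPa libraries, and at 24140 and 25456 RPKM and at 39095 and 46971 RPKM in the OS5K_2 libraries. Csf3r, the receptor for granulocyte colony-stimulating factor, was at 1349 and 1623 RPKM in OSPa and at 1371 and 1669 RPKM in OS5K_2. Ly6g, whose product was stained for the sort, was at 65.7 and 93.7 RPKM in OSPa and at 60.02 and 78.5 RPKM in OS5K_2, and the groups overlapped. Of the 8 sort and identity genes (S100a8, S100a9, Cxcr2, Ly6g, Itgam, Csf3r, Il1b and Retnlg), 4 had a higher and 4 a lower mean in OS5K_2, none had an unadjusted limma p under 0.05, and the median log2 fold change was -0.03. Libraries held between 13765576 and 15514537 reads, computed from the size of the steps between RPKM values.

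The comparison of all genes asked which transcripts of blood neutrophils differ when the tumour is OS5K_2 and not OSPa. No gene passed the test: 0 of 8039 genes (0%) had a limma adjusted p under 0.05, and the smallest adjusted p was 0.0914. An unadjusted limma p under 0.05 was found for 530 genes (6.59%): the mean in OS5K_2 was the higher one for 421 of them (5.24%) and the lower one for 109 (1.36%). The limma-voom test on recovered reads called 1 gene. Over all tested genes, 63.2% had a higher mean in OS5K_2 (5083 higher and 2955 lower) and the median log2 fold change was 0.06. That majority turned with the scaling, to 3675 higher and 4363 lower after quantile normalization and to 3533 higher and 4506 lower after median centring. Among genes with small p-values the split narrowed: after quantile normalization 500 genes were under that unadjusted limma p, 274 higher and 226 lower, and after median centring 532 were, 292 higher and 240 lower. The split also turned on single libraries. Without OS5K_2 replicate 1 there were 343 higher and 44 lower, and without OS5K_2 replicate 2 there were 263 higher and 120 lower. Fold changes below are on the scale of log2(RPKM + 1), with their standard errors, and understate the change of genes with low RPKM. Since no gene was called, the words higher and lower describe the means of 2 libraries against 2.

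**Figure D1:**
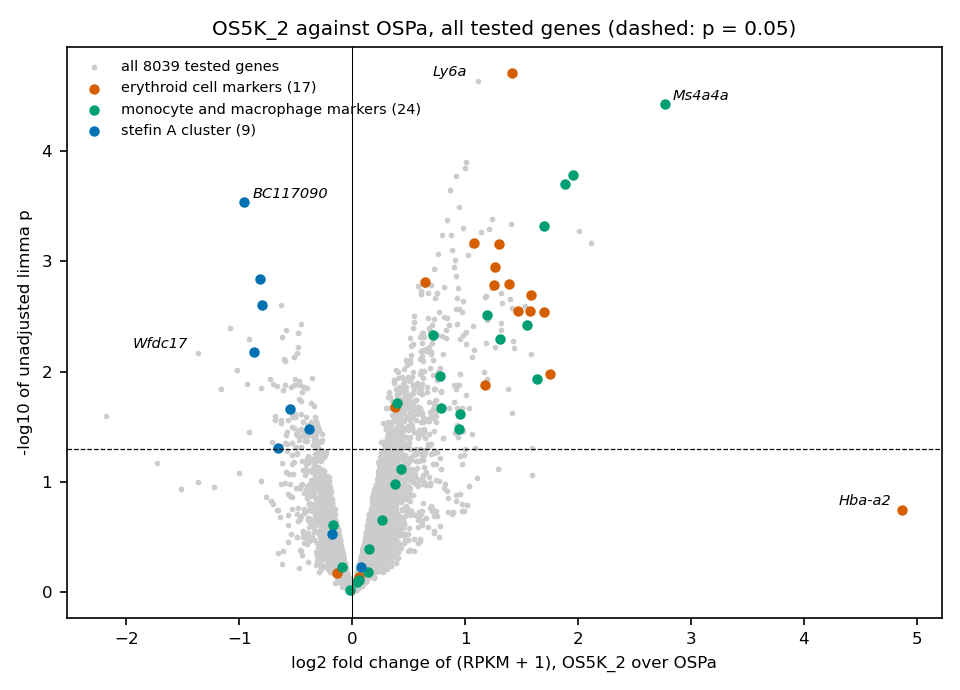
Each point is 1 of the 8039 tested genes, with the log2 fold change of OS5K_2 over OSPa on the x axis and -log10 of the unadjusted limma p on the y axis. Erythroid (17 genes, orange) and monocyte (24 genes, green) markers lie mostly to the right, 8 of the 9 genes of the stefin A cluster (blue) lie to the left, and no gene passed the adjusted threshold.

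Red cell genes gave the widest group of differences. Of the 17 tested erythroid markers, out of 25 listed, 16 had a higher mean in OS5K_2, against 63.2% of all tested genes. An unadjusted limma p under 0.05 in that direction was found for 14, against 5.24% of all tested genes. The median log2 fold change was 1.30 against 0.06 over all genes. In bulk samples such as these, fewer cells of a type and less RNA per cell cannot be told apart.

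The named genes of heme synthesis and iron supply had lower means in OSPa than in OS5K_2. Of the 23 tested iron genes, 17 had a higher mean in OS5K_2 and 6 a lower one, beside 63.2% higher over all tested genes. An unadjusted limma p under 0.05 was found for 5 of the 17, against 5.24% of all, and for 1 of the 6. The median over the 23 was 0.11, and 0.03 after median centring. Alas2, which makes the first committed step of heme synthesis in red cell precursors, was at 113 and 176 RPKM in OSPa and at 430 and 417 RPKM in OS5K_2, a log2 fold change of 1.58 ± 0.37 (SE, n = 2 against 2). Fech, which inserts iron into the heme ring, was at 32.3 and 44.4 RPKM in OSPa and at 103 and 87.9 RPKM in OS5K_2, a log2 fold change of 1.30 ± 0.26. In both genes the OS5K_2 libraries lay above OSPa and sham without overlap. Slc25a37, the mitochondrial iron importer, had a log2 fold change of 0.64 ± 0.15. Isca1, which serves iron-sulfur cluster assembly, was at 12.1 and 16.3 RPKM in OSPa and at 32.7 and 28.2 RPKM in OS5K_2. Ube2l6, a ubiquitin-like conjugating enzyme that stands in both the erythroid and the interferon list, was at 32.1 and 51.5 RPKM in OSPa and at 110 and 107 RPKM in OS5K_2. Fam220a was at 10.6 and 11.5 RPKM in OSPa and at 22.8 and 21.7 RPKM in OS5K_2, and Memo1 at 2.71 and 2.87 RPKM and at 7.39 and 5.03 RPKM. Fam46c, later named Tent5c and a poly(A) polymerase, was at 15.9 and 23.7 RPKM against 61.5 and 46.2 RPKM. Adjusted limma p-values of these 8 genes were between 0.218 and 0.328.

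The globin genes themselves were the most abundant of the erythroid list. Hbb-bs, an adult beta globin, was at 7080 and 8833 RPKM in OSPa, 19983 and 18113 in OS5K_2, 20734 and 18196 in sham, 41548 and 23810 in OS5K_1 and 23847 and 16241 in OS5K_3. OS5K_2 sat at the level of sham, and OSPa was the group that stood below all others. Hba-a1 and Hba-a2 are near-identical copies whose reads the counting can split either way, as the 3470 and 11.4 RPKM of Hba-a2 in the 2 OSPa libraries show, so they are given as a sum: 12542 and 17379 RPKM in OSPa and 33984 and 35375 RPKM in OS5K_2. Globin shares are out of the read total of each library, computed from the steps between RPKM values. The 4 adult globin genes together took 1.89% ± 0.429 (SD, n = 2) of that total in OSPa and 4.40% ± 0.00838 in OS5K_2. That share was 4.47% ± 0.470 in sham, 7.34% ± 3.08 in OS5K_1 and 4.28% ± 1.17 in OS5K_3. An exact two-sided permutation test of OS5K_2 against OSPa gave p = 0.333, the smallest p that 2 libraries against 2 allow. Rescaling every library to its reads outside the globin genes left 14 of the 17 erythroid markers at unadjusted limma p under 0.05. Because the globin share is larger in OS5K_2, this scaling raises its values and could not weaken the difference. The erythroid median went from 1.30 to 1.34 and that of all tested genes from 0.06 to 0.09.

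The promoters of Alas2 and Hbb-bs are shown because both carry, within 250 bases before the RefSeq start, a motif of the GATA family of transcription factors, whose member Gata1 drives red cell genes. They are from RefSeq on GRCm38.p6: Alas2 at chrX:150547167-150547416 on the plus strand and Hbb-bs at chr7:103827929-103828178 on the minus strand, 5′ to 3′, with the motif in capitals (TTATCT is the reverse complement of AGATAA).
Alas2: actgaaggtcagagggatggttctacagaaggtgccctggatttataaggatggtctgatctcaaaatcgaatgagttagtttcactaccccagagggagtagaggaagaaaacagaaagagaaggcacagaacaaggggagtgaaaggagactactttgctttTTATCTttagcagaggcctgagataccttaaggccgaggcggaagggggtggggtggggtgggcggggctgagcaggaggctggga
Hbb-bs: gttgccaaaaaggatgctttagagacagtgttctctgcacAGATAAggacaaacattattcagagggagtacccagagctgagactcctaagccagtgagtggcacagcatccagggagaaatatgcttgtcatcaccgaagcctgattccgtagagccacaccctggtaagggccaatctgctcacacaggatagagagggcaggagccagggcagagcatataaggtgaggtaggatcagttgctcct
AGATAA or TGATAA, searched on both strands over 250 bases, stood in 10 of the 15 erythroid markers that have a promoter entry (66.7%) and in 5092 of the 27025 genes with an entry (18.8%). The same letters stood in 2 of the 5 stefin A cluster genes with an entry (40%) and in 2 of the 22 monocyte markers with an entry (9.09%). A match is a description of the letters and not of binding.

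**Figure D2:**
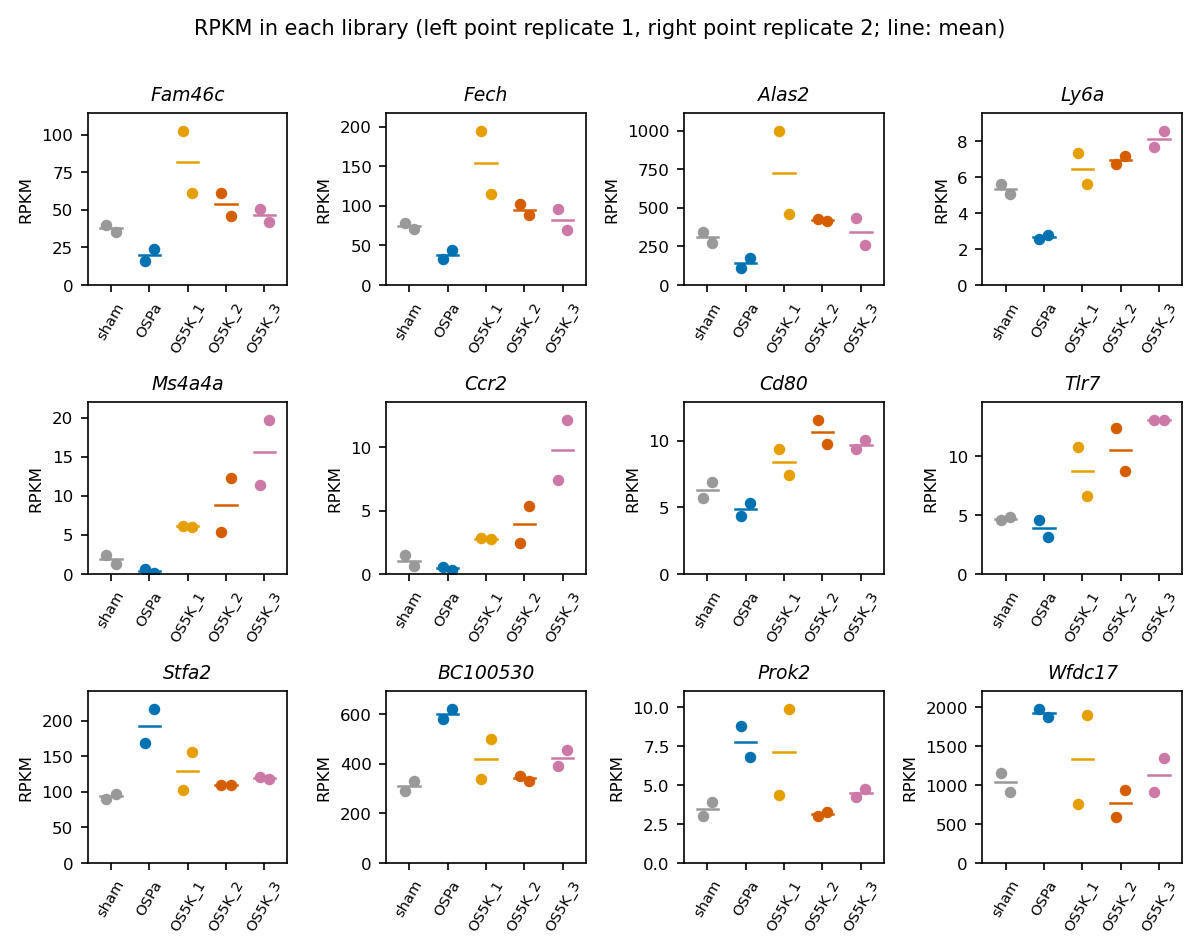
RPKM of 12 genes in each of the 10 libraries, with replicate 1 as the left and replicate 2 as the right point and the group mean as a line. Fam46c, Fech, Alas2, Ly6a, Ms4a4a, Ccr2, Cd80 and Tlr7 are higher in both OS5K_2 libraries than in both OSPa libraries, and Stfa2, BC100530, Prok2 and Wfdc17 are lower in both. Most of these genes were named by a rule that requires this separation.

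Monocyte genes formed another group with higher means. Of 24 tested monocyte and macrophage markers out of 27 listed, 21 had a higher mean in OS5K_2 and 14 an unadjusted limma p under 0.05 in that direction, against 63.2% and 5.24% of all tested genes, with a median log2 fold change of 0.75. Without OS5K_2 replicate 2 the 14 became 9 and the median 0.39. Ms4a4a, a tetraspan membrane protein gene at chr19:11375523-11392790 on the plus strand, was at 0.687 and 0.0798 RPKM in OSPa, 5.37 and 12.3 in OS5K_2, 2.39 and 1.34 in sham, 6.19 and 5.99 in OS5K_1 and 11.4 and 19.7 in OS5K_3. Behind the OSPa values stood 8 reads and 1 read, and behind the OS5K_2 values 65 and 159 reads. The log2 fold change was 2.77 ± 0.37, with a limma adjusted p of 0.0993 that ran from 0.0469, without OS5K_2 replicate 1, to 0.55, without OS5K_2 replicate 2.

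Its neighbours on the same chromosome gave like values. Ms4a6d was at 0.414 and 0.538 RPKM in OSPa and at 2.90 and 7.43 RPKM in OS5K_2, a log2 fold change of 1.96 ± 0.32, and its limma adjusted p of 0.192 became 0.0415 without OS5K_2 replicate 1 and 0.55 without OS5K_2 replicate 2. Ms4a6c was at 0.841 and 0.390 RPKM in OSPa and at 3.27 and 7.2 RPKM in OS5K_2. In the Ms4a family as a whole, 6 of 6 tested genes had a higher mean, against 63.2% of all tested genes. In that direction 5 had an unadjusted limma p under 0.05 (3 without OSPa replicate 2 or without OS5K_2 replicate 2), against 5.24% of all, and the median log2 fold change was 1.42. Every one of the 6 was higher in OS5K_2 replicate 2 than in replicate 1, by a median of 1.00 on the log2 scale. These genes are close relatives, so reads may be shared among them. Ms4a4a, Ms4a6b, Ms4a6c and Ms4a6d also stand in the monocyte list, so the Ms4a and monocyte lists are not separate groups.

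Ccr2, the chemokine receptor of classical monocytes, was at 0.574 and 0.345 RPKM in OSPa and at 2.48 and 5.39 RPKM in OS5K_2, a log2 fold change of 1.70 ± 0.32. F13a1, the clotting factor XIII subunit made by monocytes and megakaryocytes, was at 3.22 and 7.37 RPKM in OSPa and at 26.1 and 11.7 RPKM in OS5K_2. C1qa and C1qb, subunits of the complement starter C1q made by macrophages, had 0 reads in both OSPa libraries; in the OS5K_2 libraries they had 29 and 31 reads and 24 and 18 reads. No fold is given against libraries at 0 reads.

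Of the 16 monocyte markers that reached 5 RPKM in 2 libraries, 13 had a higher mean, with a median of 0.56. An unadjusted limma p under 0.05 in that direction was found for 9, against 160 of all 4426 genes under that filter. Csf1r and Ly6c2 were not among those 9. Csf1r, the receptor for macrophage colony-stimulating factor, was at 86.8 and 103 RPKM in OSPa and at 90.2 and 105 RPKM in OS5K_2, and Ly6c2 at 29.2 and 29.0 RPKM and at 26.2 and 35.2 RPKM. Both overlapped between the groups, with log2 fold changes of 0.04 ± 0.16 and 0.06 ± 0.21, which are of either sign across the settings tried. The summed RPKM of the 27 monocyte markers was 426 to 472 in OSPa, 451 to 581 in OS5K_2 and 482 to 531 in sham, so the sums overlapped. The part that monocytes in the sort have in these values was not tested.

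Markers of other blood cells were less uniform. Of 19 tested platelet and megakaryocyte markers 17 had a higher mean in OS5K_2, against 63.2% of all tested genes, with a median log2 fold change of 0.81. Only 1 had an unadjusted limma p under 0.05 in that direction, against 5.24% of all, and replicates lay far apart. Without OSPa replicate 1 the median was 0.25, and without OS5K_2 replicate 1 it was 0.31. The summed RPKM of the 20 platelet markers was 886 to 1277 in OSPa and 1162 to 2357 in OS5K_2, which overlap. All 6 tested T and NK cell markers had higher means, against 63.2% of all tested genes. So did all 7 tested MHC class II and dendritic cell markers, and the medians were 0.48 and 0.44 on the log2 scale. Without OSPa replicate 1 the T and NK median was 0.87, and without OSPa replicate 2 it was 0.37 with 4 of 6 higher. Among them Itgax, the integrin CD11c, was at 11.05 and 11.4 RPKM in OSPa and at 19.2 and 18.8 RPKM in OS5K_2, and Ccl5, a chemokine of T and NK cells, at 2.02 and 1.11 RPKM and at 3.96 and 4.03 RPKM. B cell markers split 7 to 7, with a median of 0.02.

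Of the eosinophil and basophil markers, 4 of 15 listed could be tested. Alox15, a lipoxygenase of eosinophils and resident macrophages, was at 0.351 RPKM and 0 in OSPa and at 3.26 and 4.96 RPKM in OS5K_2, and the ribonuclease gene Ear2 at 1.90 and 1.21 RPKM and at 3.65 and 11.3 RPKM. Siglecf, the surface lectin that defines eosinophils, went the other way, at 10.7 and 13.03 RPKM in OSPa and at 6.80 and 9.86 RPKM in OS5K_2. The granule genes Prg2, Epx, Ear1 and Ear6 were listed at 0 in all 4 libraries. The share of eosinophils in the sort was not tested.

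**Figure D3:**
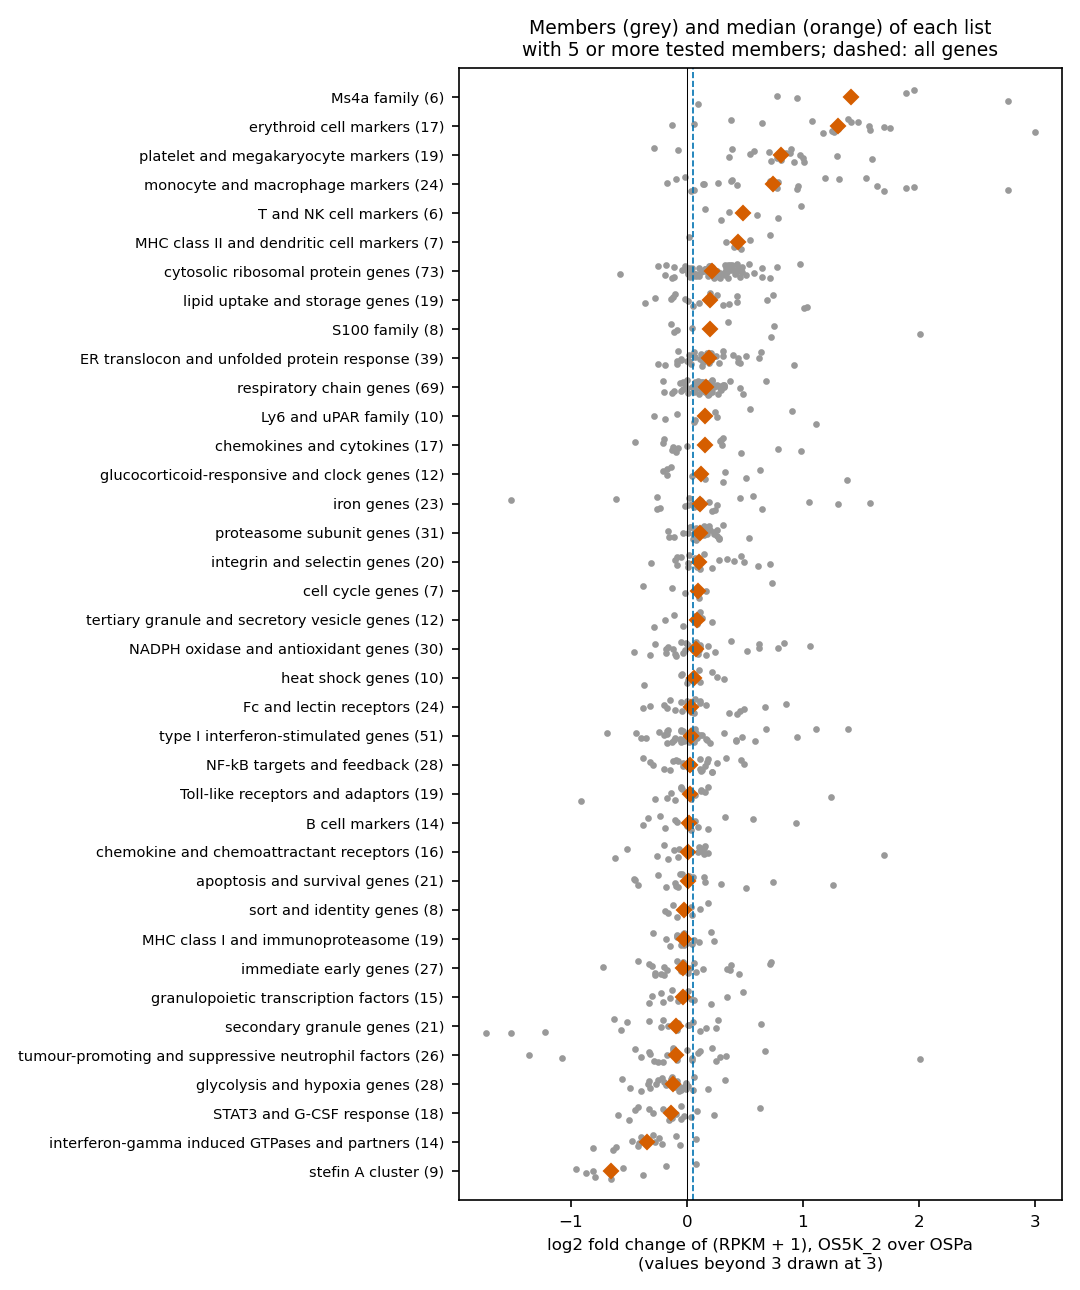
For each gene list with 5 or more tested members, grey points are the members' log2 fold changes of OS5K_2 over OSPa (number tested in brackets) and the diamond is their median. The Ms4a, erythroid, platelet and monocyte lists lie farthest to the right of the dashed median of all 8039 genes (0.06), and the stefin A cluster (median -0.66) lies farthest to the left. The Ms4a and monocyte lists share genes.

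Several surface and sensing genes with higher means stood in none of the lists of other blood cells. Ly6a, the membrane protein Sca-1 and a gene induced by interferon, lies at chr15:74994877-74998031 on the minus strand. It was at 2.56 and 2.77 RPKM in OSPa, 6.70 and 7.17 in OS5K_2, 5.63 and 5.04 in sham, 7.33 and 5.60 in OS5K_1 and 7.66 and 8.56 in OS5K_3. The OSPa libraries were the lowest of the 10, and the log2 fold change was 1.11 ± 0.14. Its limma adjusted p of 0.0914 ran from 0.06 to 0.55 across the settings tried, the highest without OS5K_2 replicate 2. In the Ly6 and uPAR family 7 of 10 tested genes had a higher mean, a share near the 63.2% of all tested genes. Their median was 0.16 (0.038 without OS5K_2 replicate 2). Against sham 5 of the 10 had a higher and 5 a lower mean.

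Cd80, a ligand that costimulates T cells, was at 4.32 and 5.37 RPKM in OSPa, 11.6 and 9.78 in OS5K_2 and 5.72 and 6.90 in sham, so OS5K_2 lay above both. Tlr7, the endosomal sensor of single-stranded RNA, was at 4.57 and 3.19 RPKM in OSPa, 12.4 and 8.76 in OS5K_2 and 4.57 and 4.86 in sham. Log2 fold changes over OSPa were 1.00 ± 0.16 for Cd80 and 1.24 ± 0.23 for Tlr7, with limma adjusted p of 0.192 and 0.218. Tlr1, the partner of Tlr2 in sensing bacterial lipopeptides, went the other way, from 15.6 and 15.3 RPKM in OSPa to 6.64 and 8.94 RPKM in OS5K_2. The 19 tested Toll-like receptors and adaptors had a median of 0.02.

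S100a4, a calcium-binding protein that marks motile and myeloid cells, was at 0.369 RPKM and 0 in OSPa and at 3.78 and 3.64 RPKM in OS5K_2. Its limma adjusted p of 0.218 became 0.0470 without sham replicate 1 and 0.0464 without sham replicate 2, and reached 0.7 without OS5K_2 replicate 2. Those values rest on 3 reads and 0 reads in OSPa against 32 and 33 reads in OS5K_2. The 7 other tested S100 genes included S100a8 and S100a9, whose log2 fold changes were -0.08 ± 0.15 and 0.05 ± 0.14.

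Metabolic genes with higher means were spread over lipid, oxidant and mitochondrial roles. Cd36, a scavenger receptor that takes up fatty acids, was at 0.620 and 0.985 RPKM in OSPa and at 2.58 and 2.64 RPKM in OS5K_2, a log2 fold change of 1.01 ± 0.16. Acaa2, which ends a round of mitochondrial fatty acid breakdown, was at 7.30 and 6.91 RPKM against 11.98 and 15.997 RPKM, and Plin2, the coat of lipid droplets, at 23.9 and 9.67 RPKM against 33.9 and 31.1 RPKM. Of 19 tested lipid genes 13 had a higher mean, a share near the 63.2% of all tested genes. An unadjusted limma p under 0.05 in that direction was found for 5, against 5.24% of all, and for 3 without OSPa replicate 2 or without OS5K_2 replicate 2. The antioxidant genes diverged. Cat, catalase, which red cells also carry in quantity, was at 9.18 and 16.4 RPKM in OSPa and at 31.4 and 22.8 RPKM in OS5K_2, while Gsr, glutathione reductase, was at 55.8 and 59.6 RPKM in OSPa and at 38.6 and 45.1 RPKM in OS5K_2. Nqo1, a quinone reductase, was at 0.925 and 0.945 RPKM against 2.09 and 1.87 RPKM.

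Genes of protein synthesis had slightly higher means than in OSPa. Against sham, list medians were -0.01 for ribosomal protein, 0.06 for translocon, -0.02 for respiratory chain and -0.04 for proteasome genes. The counts and medians that follow are against OSPa. Of 73 tested cytosolic ribosomal protein genes 63 had a higher mean in OS5K_2 and 12 an unadjusted limma p under 0.05 in that direction, against 63.2% and 5.24% of all tested genes. The median log2 fold change was 0.21, and 0.12 without OSPa replicate 2. After median centring 52 of the 73 had a higher mean, where 3533 of the 8039 tested genes did, and the 12 became 4 without OSPa replicate 2 and 3 without OS5K_2 replicate 2. Ribosomal protein genes have many processed copies in the genome, so their reads are uncertain. Sec61g, a subunit of the channel that takes new proteins into the endoplasmic reticulum, was at 0.554 and 0.623 RPKM in OSPa and at 1.77 and 2.28 RPKM in OS5K_2, a log2 fold change of 0.92 ± 0.15. Medians were 0.19 over 39 genes of the translocon and unfolded protein response (0.086 without OSPa replicate 2), 0.16 over 69 respiratory chain genes (0.089 without OS5K_2 replicate 2) and 0.11 over 31 proteasome genes (0.033 without OS5K_2 replicate 2 and 0.027 after median centring).

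The stefin A cluster led the genes with lower means in OS5K_2. Stefins are inhibitors of cysteine proteases such as the cathepsins, and the mouse carries a row of stefin A copies on chromosome 16 that neutrophils transcribe strongly. Of 9 tested genes of the list, 8 had a lower mean, where 2955 of all 8039 tested genes did. An unadjusted limma p under 0.05 in that direction was found for 7, against 1.36% of all tested genes. The median log2 fold change was -0.66, and with any 1 of the 4 libraries left out 4 of the 9 had an unadjusted limma p under 0.05. Stfa2 was at 168 and 217 RPKM in OSPa, 110 and 109 in OS5K_2, 90.2 and 97.3 in sham, 103 and 156 in OS5K_1 and 121 and 119 in OS5K_3. OS5K_2 lay below OSPa without overlap and above sham. Stfa3 was at 21.6 and 37.4 RPKM in OSPa and at 16.4 and 13.9 RPKM in OS5K_2, and Stfa2l1, the most abundant of the named copies, at 907 and 941 RPKM and at 707 and 711 RPKM.

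BC100530 and BC117090, copies known by clone names and picked out after their values were seen, gave log2 fold changes of -0.81 ± 0.18 and -0.95 ± 0.17. BC100530 was at 581 and 620 RPKM in OSPa, 351 and 331 in OS5K_2 and 291 and 330 in sham, so OS5K_2 was again nearer to sham than to OSPa. The copies are alike in sequence, and reads of one may be counted in another. Limma adjusted p-values of these 5 genes were between 0.218 and 0.677.

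The 150 bases before the RefSeq start of 4 stefin copies are shown because these genes had lower means together and their upstream sequences are alike. They are from RefSeq on GRCm38.p6: Stfa1 at chr16:36276998-36277147 (plus strand), Stfa2 at chr16:36408364-36408513 (minus), Stfa2l1 at chr16:36156661-36156810 (plus) and Stfa3 at chr16:36455393-36455542 (minus). Each reads 5′ to 3′, with the 2 runs of 13 bases common to all 4, the longest they share, in capitals.
Stfa1: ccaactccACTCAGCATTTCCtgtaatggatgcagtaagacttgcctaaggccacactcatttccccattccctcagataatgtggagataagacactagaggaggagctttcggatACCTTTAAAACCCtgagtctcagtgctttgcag
Stfa2: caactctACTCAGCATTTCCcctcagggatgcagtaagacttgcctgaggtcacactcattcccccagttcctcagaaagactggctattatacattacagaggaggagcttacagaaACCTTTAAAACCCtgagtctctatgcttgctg
Stfa2l1: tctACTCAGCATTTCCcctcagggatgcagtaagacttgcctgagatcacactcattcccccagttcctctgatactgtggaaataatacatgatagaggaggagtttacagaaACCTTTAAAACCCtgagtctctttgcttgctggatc
Stfa3: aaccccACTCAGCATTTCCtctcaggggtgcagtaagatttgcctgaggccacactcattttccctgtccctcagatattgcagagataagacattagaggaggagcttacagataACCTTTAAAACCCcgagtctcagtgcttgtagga
The first run, ACTCAGCATTTCC, starts between -147 and -142 from the start, and the other, ACCTTTAAAACCC, between -36 and -32. Searched on both strands over 250 bases, the first stood in 9 of the 27025 genes with a promoter entry (0.0333%) and the other in 8 (0.0296%). Besides the 4 shown, the first stood in Csta1, Csta3, Cstdc3, Cstdc5 and Gm7260. The other stood in Csta3, Cstdc3, Cstdc4 and Gm7260 besides the 4. Identity was counted without gaps, at the best shift of up to 15 bases. It ran from 63.8% between Stfa1 and Stfa2 to 91.1% between Stfa2 and Stfa2l1. Without gaps, a pair that differs by an inserted or lost base scores lower than its aligned bases would. Shared runs of this kind say only that the copies are related.

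Wfdc17, a small secreted protein of the whey acidic protein family, was at 1975 and 1875 RPKM in OSPa and at 596 and 934 RPKM in OS5K_2, a log2 fold change of -1.37 ± 0.39. The other groups ranged widely, from 759 to 1904 RPKM within OS5K_1 alone. Prok2, the secreted peptide prokineticin 2, known for recruiting myeloid cells and for promoting vessel growth, was at 8.77 and 6.79 RPKM in OSPa, 2.99 and 3.26 in OS5K_2 and 3.00 and 3.90 in sham. Cxcr1, a receptor for neutrophil-drawing chemokines, was at 9.63 and 6.80 RPKM in OSPa and at 4.77 and 5.06 RPKM in OS5K_2, while its more abundant relative Cxcr2 was at 863 and 846 RPKM against 710 and 820 RPKM. Limma adjusted p-values were 0.424 for Wfdc17, 0.382 for Prok2 and 0.383 for Cxcr1.

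Targets of Stat3, the transcription factor that acts below the receptor for granulocyte colony-stimulating factor, had mostly lower means. Of 18 tested genes 14 had a lower mean, where 2955 of the 8039 tested genes did, and the median was -0.14. An unadjusted limma p under 0.05 in that direction was found for 4 of the 14, against 1.36% of all tested genes. Without OSPa replicate 2, or without OS5K_2 replicate 1, 0 of the 18 had such a p in that direction, and the median was -0.068 or -0.079. Pim1, a survival kinase, was at 179 and 242 RPKM in OSPa and at 129 and 146 RPKM in OS5K_2. Socs3, which shuts off signals of this kind, was at 222 and 235 RPKM against 137 and 190 RPKM, and Mcl1, the survival factor on which neutrophils depend, at 996 and 1013 RPKM against 737 and 758 RPKM. Il1r2, the decoy receptor for interleukin 1, stood in the same list and was higher, at 63.1 and 68.1 RPKM in OSPa and at 110 and 94.1 RPKM in OS5K_2. None of these genes overlapped between the groups, but the share of all tested genes that separate in this way was not counted. Such separation carries little weight with 2 libraries against 2, and the rule that named Pim1 requires it. Mcl1 and Il1r2 were named for their small p, and Socs3 was chosen after its values were seen. Basp1, Lbr, Ctnnbip1 and the zinc finger gene Zfp971 completed the named genes with lower means, with log2 fold changes between -0.63 and -0.48. Of 28 tested glycolysis and hypoxia genes 23 had a lower mean, again beside 2955 of all 8039, with a median of -0.12. An unadjusted limma p under 0.05 in that direction was found for 1 of them, against 1.36% of all tested genes. Lower means were 15 of 28 without OS5K_2 replicate 1 and 25 without OS5K_2 replicate 2.

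Interferon genes gave no common direction against OSPa. Of 51 tested type I interferon-stimulated genes 30 had a higher mean, a share near the 63.2% of all tested genes. Their median log2 fold change of 0.03 turned to -0.01 under quantile normalization and -0.05 under median centring. Of 14 interferon-gamma induced GTPases and partners 13 had a lower mean, where 2955 of all 8039 tested genes did. Their median was -0.34, and none had an unadjusted limma p under 0.05. That median was -0.88 without OSPa replicate 1 and -0.00389 without OSPa replicate 2. The OSPa libraries themselves were apart, with replicate 2 the higher by a median of 0.87 on the log2 scale. Gbp2, a guanylate-binding protein, was at 57.5 and 109 RPKM in OSPa and at 47.2 and 54.2 RPKM in OS5K_2.

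Granule protein genes were far apart within OS5K_2. Ltf, lactoferrin, was at 132 and 126 RPKM in OSPa and at 22.9 and 84.7 RPKM in OS5K_2, Camp, the cathelicidin precursor, at 213 and 138 RPKM and at 28.6 and 90.1 RPKM, and Ngp, neutrophilic granule protein, at 555 and 524 RPKM and at 142 and 374 RPKM. All 3 were lower in both OS5K_2 libraries, with log2 fold changes of -1.52 ± 0.88, -1.73 ± 0.84 and -1.22 ± 0.70 and unadjusted limma p of 0.116, 0.0683 and 0.112. OS5K_1 and OS5K_3 each had 1 library as low: Ltf was at 129 and 27.97 RPKM in OS5K_1 and at 105 and 20.47 RPKM in OS5K_3. Other secondary granule genes did not follow: Mmp8, a collagenase, was at 350 and 344 RPKM in OSPa and at 414 and 414 RPKM in OS5K_2, and Olfm4, olfactomedin 4, at 17.1 and 20.7 RPKM and at 27.1 and 32.7 RPKM. Over the 21 tested genes of the list 8 had a higher and 13 a lower mean, with a median of -0.09 that was 0.02 without OS5K_2 replicate 1.

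The OS5K_2 libraries also differed in other blood cell genes. Pf4, platelet factor 4, was at 854 RPKM in replicate 1 and 392 RPKM in replicate 2, and Ppbp, the platelet basic protein, at 403 and 157 RPKM. All 19 tested platelet markers were higher in replicate 1, by a median of 1.01 on the log2 scale, whereas 21 of the 24 monocyte markers were higher in replicate 2. In OSPa the platelet markers were apart by as much, with replicate 2 the higher by a median of 1.01. The part of platelets, monocytes or granule-rich young cells in the differences between groups was not tested.

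**Figure D4:**
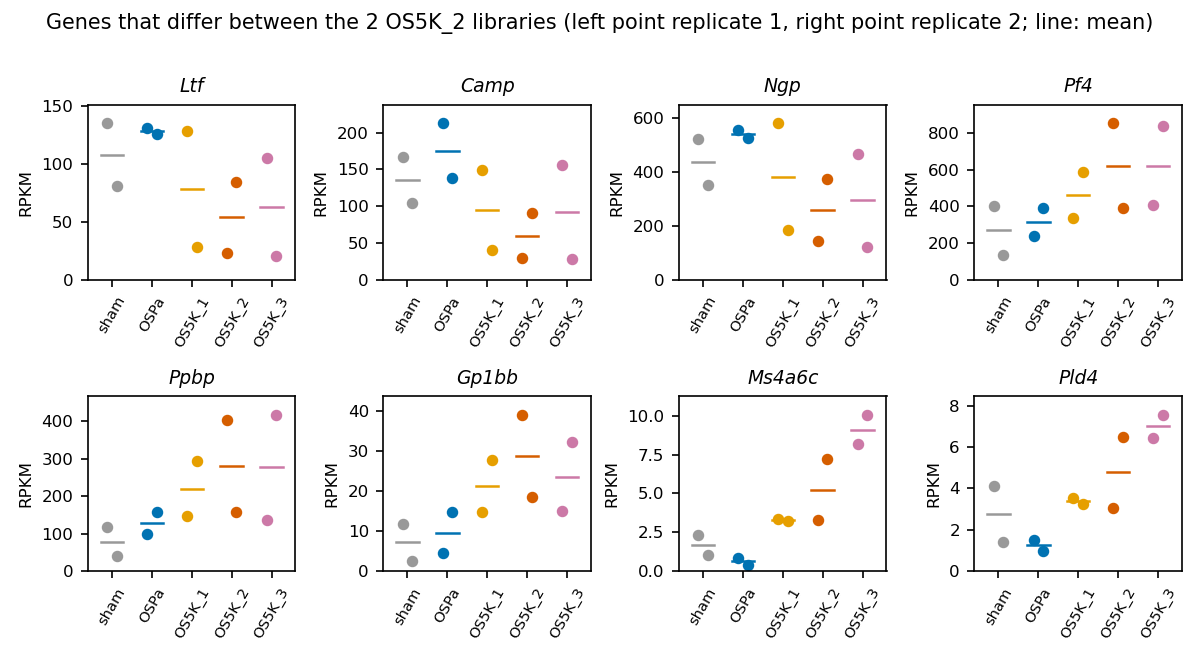
RPKM of 8 genes in each of the 10 libraries (left point replicate 1, right point replicate 2, line the group mean). Ltf, Camp and Ngp are lower and Pf4, Ppbp and Gp1bb higher in OS5K_2 replicate 1 than in replicate 2, and the monocyte genes Ms4a6c and Pld4 are higher in replicate 2.

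OS5K_2 was next set against the mean of OS5K_1 and OS5K_3, which asks what is particular to this line among the derived lines and uses no OSPa library in the contrast. No gene was called, 0 of 8039 (0%), with a smallest limma adjusted p of 0.993, and limma-voom called 0. An unadjusted limma p under 0.05 was reached by 198 genes (2.46%), with the OS5K_2 mean above for 153 (1.9%) and below for 45 (0.56%); quantile normalization made the split 91 to 112, median centring 82 to 115 and rescaling to reads outside the globin genes 104 to 53. Without OS5K_1 replicate 1 there were 335 such genes, without OS5K_3 replicate 1 there were 360, and without OS5K_3 replicate 2 there were 117. The groups that led the comparison with OSPa gave other values here. The erythroid markers had lower means in OS5K_2 for 15 of 17 genes, with a median of -0.21, and the 6 Ms4a genes were all lower, with a median of -0.28. Over all tested genes 2781 of 8039 had a lower mean in this contrast. In the stefin A cluster 8 of 9 genes had a lower mean, as against OSPa, and 3 of the 9 had an unadjusted limma p under 0.05 in that direction, with a median of -0.18. Cd36 had a log2 fold change of -0.46 ± 0.14 and Sec61g one of -0.38 ± 0.13.

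Nxf1, the exporter of messenger RNA from the nucleus, was at 17.7 and 22.7 RPKM in OS5K_2, 15.1 and 16.2 in OS5K_1 and 15.1 and 14.0 in OS5K_3, a log2 fold change of 0.39 ± 0.12. Pfdn6, a subunit of the chaperone prefoldin, had one of 0.53 ± 0.15, the linker histone gene Hist1h1e one of 0.38 ± 0.10, Thap3 one of 0.40 ± 0.12 and Fam173a one of 0.53 ± 0.17. On the lower side Smpdl3a, a phosphodiesterase related to acid sphingomyelinase, was at 37.8 and 46.2 RPKM in OS5K_2, 52.4 and 60.1 in OS5K_1 and 52.2 and 54.7 in OS5K_3. Rps23 had a log2 fold change of -0.79 ± 0.22 and Prok2 one of -0.65 ± 0.25. Rpl38, another ribosomal protein gene, had one of -0.37 ± 0.14, and Cebpb, a transcription factor of emergency granulocyte production, one of -0.54 ± 0.21. Limma adjusted p-values of all these genes were 0.993 or above.

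Against sham, OS5K_2 had 0 called genes of 8039 (0%), a smallest limma adjusted p of 0.721, and 0 calls by limma-voom. Of the tested genes 390 had an unadjusted limma p under 0.05 (4.85%), with 238 higher (2.96%) and 152 lower (1.89%) in OS5K_2, and the split was 205 to 219 after quantile normalization and 193 to 201 after median centring. Without sham replicate 1 it was 370 to 207, without sham replicate 2 it was 133 to 169, and without OS5K_2 replicate 1 it was 138 to 58. This contrast shares its OS5K_2 libraries with the one against OSPa, so values are given side by side. Erythroid markers had a median log2 fold change of 0.31 over sham and 1.30 over OSPa, monocyte markers 0.32 and 0.75, platelet markers 1.18 and 0.81, and the stefin A cluster 0.06 and -0.66. Single libraries moved these medians over sham. The monocyte median was -0.0334 without OS5K_2 replicate 2 and 0.526 without OS5K_2 replicate 1. The platelet median was 0.395 without sham replicate 2, and above 1.18 without sham replicate 1 or without OS5K_2 replicate 2. The erythroid median ran from 0.237, without OS5K_2 replicate 1, to 0.461, without OS5K_2 replicate 2. The stefin A median was -0.0250 without sham replicate 1 and 0.188 without sham replicate 2. Tlr7 had a log2 fold change of 1.00 ± 0.23 over sham, Ms4a4a one of 1.71 ± 0.37 and F13a1 one of 2.00 ± 0.52. Mmp8 was at 275 and 290 RPKM in sham and 414 in each OS5K_2 library. Among the genes of smallest p with a higher mean, Prps1l1, a relative of the enzymes that make phosphoribosyl pyrophosphate, was at 3.85 and 2.17 RPKM in sham and at 6.88 and 7.85 RPKM in OS5K_2. Nap1l1, a histone chaperone, was at 6.75 and 6.73 RPKM against 13.2 and 10.1 RPKM, and Cpne2, a calcium-dependent lipid-binding protein, at 16.2 and 14.4 RPKM against 25.6 and 25.3 RPKM.

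Interferon and class I genes were lower in OS5K_2 than in sham in their means. Over all tested genes 3640 of 8039 had a lower mean than in sham. All 14 tested interferon-gamma induced genes and all 19 MHC class I and immunoproteasome genes had lower means. Their medians were -1.04 and -0.58, beside -0.34 and -0.03 against OSPa. Of these genes 4 of the 14 and 7 of the 19 had an unadjusted limma p under 0.05, as did 15 of the 51 tested type I interferon genes in the same direction, against 1.89% of all tested genes. The sham libraries stood apart in these genes: without sham replicate 1 the medians were -1.86 for the interferon-gamma, -0.98 for the class I and -0.57 for the type I genes, and without sham replicate 2 they were -0.17, -0.27 and -0.096, with 1 of 14, 0 of 19 and 2 of 51 genes at such a p. Without OS5K_2 replicate 1 those counts were 1, 0 and 0. Gbp3 was at 4.96 and 18.9 RPKM in sham and at 2.05 and 2.63 RPKM in OS5K_2. Its log2 fold change of -1.71 ± 0.44 was -2.58 without sham replicate 1 (limma adjusted p of 0.0127) and -0.84 without sham replicate 2 (limma adjusted p of 0.978). H2-Q5, a class I gene of the Q region and one of the 5 genes of smallest p on the lower side, was at 16.1 and 23.3 RPKM in sham and at 9.81 and 9.68 RPKM in OS5K_2, and H2-Bl, another of them, at 8.37 and 12.8 RPKM and at 5.99 and 6.02 RPKM. Bcl2a1a, a survival gene of the Bcl2 family with near-identical copies, was at 15.9 and 21.7 RPKM in sham and at 11.6 and 12.04 RPKM in OS5K_2. H2-K1, a classical class I gene, was at 436 and 643 RPKM in sham and at 293 and 363 RPKM in OS5K_2. Pim1 was at 218 and 235 RPKM in sham and at 129 and 146 RPKM in OS5K_2, and Zfp971 at 10.4 and 9.99 RPKM and at 5.66 and 6.64 RPKM.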

How the data were processed

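Polyadenylated RNA of sorted neutrophils was sequenced in 10 libraries (5 groups of 2). The extraction protocol in the labels speaks of cultured cells, and the growth protocol of neutrophils sorted from blood. The cells were taken as blood neutrophils. RNA isolation used RNeasy and library preparation the SMART-Seq v4 and Ion Xpress Plus kits, per the labels' protocols. Per the submitters' processing notes the genome build was mm10. The aligner and the counting tool: not given in the sources used here. The authors deposited 1 table of RPKM values for 54146 genes, per the file headers. Strand was not stated, so antisense partners cannot be told apart.

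The filter kept a gene that reached 1 RPKM in 2 or more libraries. Tests used limma 3.58.1 (R 4.3.3; trend and robust) on log2(RPKM + 1), with 5 group means over all 10 libraries and Benjamini-Hochberg adjustment over 8039 genes, called at an adjusted p under 0.05. Groups came from the titles of the samples. Reads were recovered by dividing RPKM by the value of 1 read, with GENCODE M21 exon lengths: 84.7% of values came within 0.02 of a whole number, and 54079 of 54146 gene IDs matched. The spread is shared by all groups; 2 libraries against 2 give limited precision. The 21 alternatives were other scalings, filters of 5 RPKM or none, pseudocounts of 0.1 and 5, limma-voom, a replicate block and leaving out each library. Scripts were tested on simulated data.

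Named genes were, leaving out predicted genes and clone names, the 12 of smallest p in each direction whose groups did not overlap and whose mean was at least 5 RPKM, up to 4 of smallest p in each of 40 lists, the identity genes, and 5 in each direction in the other contrasts; others were chosen after their values were seen. The comparison, the lists and these rules were chosen with earlier results of these data known. A few genes that meet these rules are not reported here.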

Additional observations from a re-analysis of the deposited data

How the results depend on the processing

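No gene passed the adjusted threshold in any of the 3 comparisons. Against OSPa, limma-voom on recovered reads called 1 gene and testing every gene above 0 called 14, none of them in the filtered set and each with at most 2 reads in any library; leaving out single libraries gave 0 to 2 calls. Against the mean of OS5K_1 and OS5K_3, testing every gene called 8. Against sham, testing every gene called 6, fitting only the 2 groups called 1 (Hba-a2, whose reads are split with Hba-a1), and leaving out single libraries gave 0 to 5. At unadjusted limma p under 0.05 there were 1197 genes without the filter and 229 with the 5 RPKM filter, against 530. The causes were not tested.

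The deviations of same-numbered OSPa and OS5K_2 libraries had r = 0.07 across genes, and other pairs of groups ran from -0.38 to 0.45. With 1 replicate difference per group, these values cannot show whether the replicate numbers pair the libraries. With the replicate number as a block, 0 genes were called in each comparison, and 541 had an unadjusted limma p under 0.05 against OSPa.

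Of 112 named log2 fold changes, 9 changed sign in 19 fits, all uncalled and near 0. Under median centring these were Csf1r (-0.044), Csf3r (-0.051), Ly6c2 (-0.025) and S100a9 (-0.037), and under quantile normalization Csf3r (-0.044) and Retnlg (-0.16). With single libraries left out, log2 fold changes ran from -0.082 to 0.16 for Csf1r, -0.11 to 0.17 for Csf3r, -0.37 to 0.12 for Il1b, -0.15 to 0.38 for Itgam, -0.15 to 0.27 for Ly6c2, -0.44 to 0.062 for Ly6g, -0.21 to 0.038 for S100a8 and -0.086 to 0.18 for S100a9. Under alternatives, 796 list medians moved by less and 44 by more than the spread between replicates. Many of the 796 could not move at all. The replicate block, the fit without the trend and the fit of only the compared groups keep every fold change over OSPa. So does leaving out a sham, OS5K_1 or OS5K_3 library, and none of these fits could change a sign against OSPa. Depth limits genes under about 1 RPKM, which rest on few reads.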
